A study of Mus musculus with 4 samples.

Results

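Solute carriers (SLC) are the largest group of membrane transporters. They move amino acids, sugars, ions, metals, nucleosides, vitamins and other small molecules across the cell surface and the membranes of organelles, and the number after Slc names a family that shares substrates or ancestry. Growing lymphocytes and leukemia cells take up glutamine, leucine, arginine and folate through surface carriers, while other carriers serve mitochondria, the Golgi apparatus and lysosomes. A transcript count does not measure transport.

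The expressed SLC genes were followed in T8, a leukemia cell line established from a precursor B-cell acute lymphoblastic leukemia (pB-ALL) of a mouse lacking IRF4, a transcription factor of B-cell development. All 4 libraries are therefore labelled Irf4-/-. The cells were transduced with a retrovirus coding for GFP alone (EV-RV, 2 libraries) or for GFP and IRF4 (IRF4-RV, 2 libraries), and bulk RNA was sequenced 24 h later. T8 is a single line, the labels do not state whether the libraries came from separate cultures, and p-values cover the spread between these libraries, which may be technical. The protocol text in the labels names another line, T11, whereas the titles and tissue name T8, and the libraries were used as T8.

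Members were the protein-coding genes of GENCODE M21 whose symbol starts with Slc and a number, chosen by their counts: at least 10 in each of the 4 libraries. The same threshold applied to both groups and the direction of change was not used, so the presence and the lowest level of a member are descriptions only. Of 371 annotated Slc genes, 170 (45.8%) met the rule, from 45 of 49 families. Another 166 were under 10 counts in every library, 30 of these at 0 in all, and 35 reached 10 counts in some libraries but not all. The symbols *Slc4a1ap*, *Slc7a6os* and *Slc9a3r1* meet the rule although their products are not carriers. Closest to the threshold on the inside was *Slc47a2*, with 18 and 12 counts in EV-RV and 10 and 16 in IRF4-RV. Just outside stood *Slc11a1*, with 13 and 10 against 9 and 43 counts.

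Depth was 31686715 and 31230223 counts in EV-RV and 34771970 and 37817752 counts in IRF4-RV, so that 10 counts equal between 0.275 and 0.317 CPM (counts scaled to a common library size after TMM factors, which correct for composition). *Irf4* had 8070 and 7600 counts in EV-RV and 95578 and 90693 in IRF4-RV, where vector and endogenous transcripts cannot be told apart. The EV-RV counts are far from 0 in cells labelled Irf4-/-, and since counts per gene do not separate the deleted part, they do not check the deletion. The precursor B-cell markers *Cd79a*, *Pax5* and *Ebf1* were abundant in every library, whereas *Rag1* had at most 1 count. Of 9 markers tested 1 was higher and 3 lower with IRF4-RV. *Vpreb1* had 20408 and 22657 counts in EV-RV and 7803 and 8865 in IRF4-RV. *Igll1* had 29826 and 31931 against 12512 and 14803, and *Dntt* 86 and 90 against 34 and 31. *Blnk* had 3614 and 3402 against 7796 and 7771. T and NK cell markers summed to between 61 and 99 counts, and *Cd8a* and *Ncr1* were at 0. Macrophage markers summed to 49 and 46 counts in EV-RV and 291 and 271 in IRF4-RV, with *Adgre1* at 0. *Mrc1* made up 24 and 23 of these counts in EV-RV and 260 and 230 in IRF4-RV. Erythroid markers summed to between 123 and 188 counts. Stromal markers summed to 41.3 and 76 CPM in EV-RV and to 39.1 and 187.1 CPM in IRF4-RV. Stromal markers were thus higher in replicate 2 of both groups, and highest in replicate 2 of IRF4-RV. In bulk samples, a change in the share of a cell type and a change in RNA per cell cannot be told apart.

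Expression of SLC genes changed in both directions with IRF4-RV. Of the 170 members, 32 (18.8%) were higher and 32 (18.8%) lower at an FDR of 0.1 in edgeR's quasi-likelihood test, with adjustment over all 14637 genes tested, and 106 were not called. The strongest rises were those of *Slc37a2*, *Slc29a3*, *Slc44a1*, *Slc12a3* and *Slc30a4*. The largest falls were those of *Slc8a2* and *Slc29a2*, both at low counts, then the phosphate carrier *Slc20a1*, *Slc17a9* and *Slc5a6*. Smaller falls included the surface carriers *Slc1a5* for glutamine, *Slc7a5* for leucine, *Slc7a1* for arginine, *Slc19a1* for folate and *Slc29a1* for nucleosides. Falls were not general among surface carriers. *Slc2a1*, *Slc2a3* and *Slc38a2* were not called, and *Slc44a1* and *Slc14a1* rose.

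The 37.6% of members called compares with 29.7% of all genes tested, of which 16% were higher and 13.7% lower. Among protein-coding genes that met the same count rule, 35.5% were called, 19.2% higher and 16.3% lower. The share of members called was thus near that of other genes at this depth, and the members are not set apart by how many changed. Their median log2 fold change was 0.008, against 0.007 for all genes tested. With library size in place of TMM, 26 members were higher and 41 lower, so 38.8% of the calls were rises instead of 50% (all genes, 37.8% instead of 53.8%). The direction of no called member turned under that scaling. Without replicate 2 of IRF4-RV, in which stromal markers were highest, 33 members were higher and 23 lower.

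**Figure D1:**
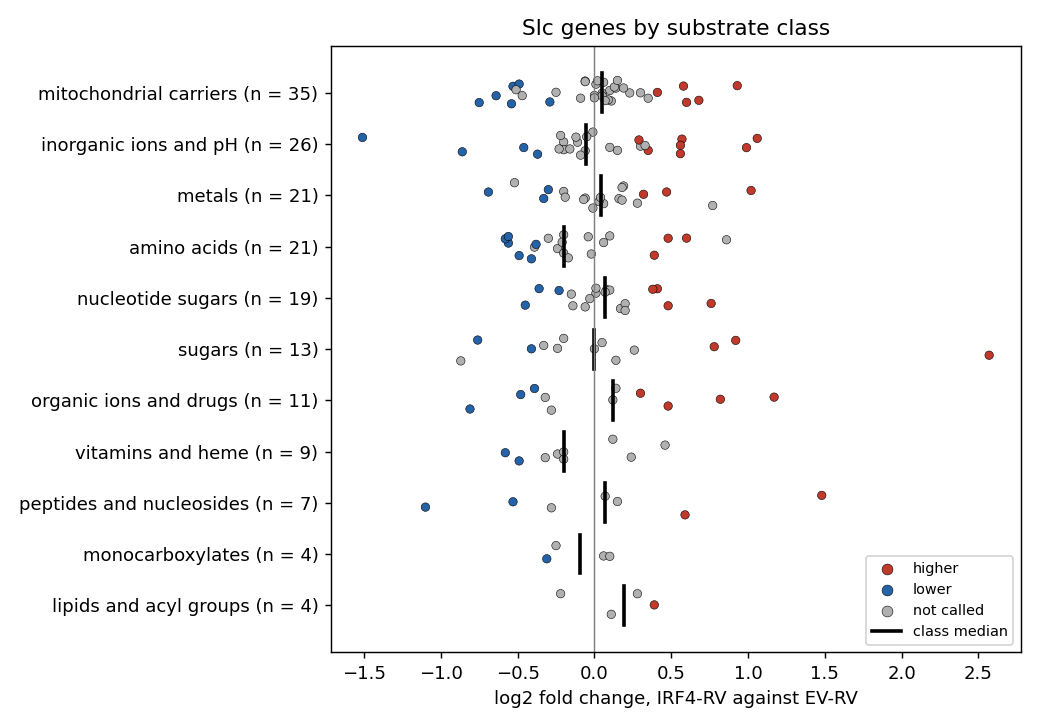
Each point is 1 of the 170 expressed Slc genes, placed by its log2 fold change between IRF4-RV and EV-RV (horizontal axis, 2 libraries per group) and by substrate class (vertical axis), with red for higher, blue for lower and grey for not called, and a black bar at the class median. The amino acid class had a median of -0.20 with 6 falls and 3 rises, and *Slc37a2* lies farthest to the right at 2.57.

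Changes were mostly modest. A log2 fold change beyond 1 was found in 5 rises and 2 falls, which is 4.12% of the members, against 5.89% of the protein-coding genes that met the count rule. The normalised counts of the groups did not overlap in 122 members (71.8%), compared with 65.9% of the protein-coding genes that met the count rule and 61.3% of all genes tested. Of the 64 calls, 41 held whichever library was omitted, 20 rises and 21 falls, and no called member changed direction. Exon bases were shared with another gene in 57 members, 22 of them called, and their counts are uncertain because the handling of strand is not given in the sources used here.

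The members spanned a wide range of levels. In EV-RV cells their mean TPM (counts per exon length, scaled to a common total) lay between 0.325 and 1771.1 with a median of 7.72, and the 10 highest held 62.2% of the summed level. The highest was *Slc25a5*, the ADP/ATP carrier of the inner mitochondrial membrane, at 1771.1 ± 117.2 TPM (SD, n = 2). It was followed by the phosphate carrier *Slc25a3* (265.2 ± 8.57 TPM) and a second ADP/ATP carrier, *Slc25a4* (262.3 ± 7.54 TPM), which lay within their spread of each other. None of these 3 passed the test, with log2 fold changes of -0.06, 0.00 and 0.05 and adjusted p of 0.696, 0.996 and 0.689. *Slc16a1*, at 236.3 ± 11.9 TPM, and *Slc1a5*, at 234.6 ± 9.36 TPM, came next, did not differ beyond their spread in EV-RV, and both fell with IRF4-RV. Summed over all members, the level was 5795.4 and 5961.5 TPM in EV-RV and 5135.2 and 5119.4 TPM in IRF4-RV. TPM are relative to the whole library and carry no TMM factor. Scaled by library size alone, all genes tested had a median log2 fold change of -0.083.

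**Figure D2:**
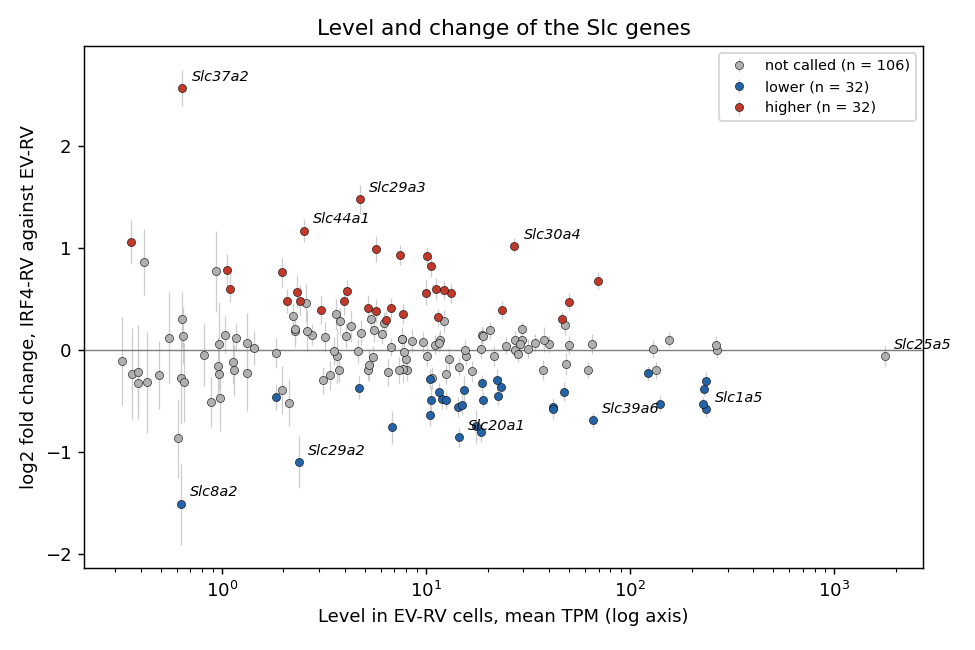
Mean TPM in EV-RV cells (horizontal log axis) against the log2 fold change with IRF4-RV (vertical axis, bars show the standard error) for the 170 expressed Slc genes. The rises beyond a log2 fold change of 1 lie at or below 27.1 TPM in EV-RV, whereas *Slc1a5* fell from 234.6 TPM and *Slc25a5*, the highest, was not called.

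Promoter sequences were searched for letters that IRF factors and other regulators of transporter genes are known to bind. RefSeq windows of GRCm38.p6, from 250 bases before to 50 after a transcription start, were found for 132 of the 170 members, including 26 of 32 higher and 22 of 32 lower genes. Both strands were searched. The interferon-response type letters GAAANNGAAA stood in a window of 4 members (3.03%), against 3.99% of all genes with a window. They were found in 2 of 26 higher members (7.69%) and 1 of 22 lower members (4.55%), and in 7.27% of the higher and 2.04% of the lower protein-coding genes with at least 10 counts. The ETS-IRF composite letters GGAANNGAAA, which cannot match the same 10 bases, stood in 7 members (5.3%), against 3.16% of all genes. Of those members 2 were higher, 2 lower and 3 not called, and the letters stood in 4.54% of the higher and 1.6% of the lower protein-coding genes with at least 10 counts. With the first listed window of each gene only, 4 members (3.03%) held the composite letters against 2.79% of all genes, and the interferon-response type letters stood in 3 members (2.27%) against 3.49%. The 4 higher members with either set of letters are shown 5′ to 3′ on the gene's strand, with the matching bases in capitals.
Slc37a2 (chr9:37255689-37255714, minus strand): ggactgctgtTTTCAGTTCCccatcc
Slc35f6 (chr5:30647775-30647824, plus strand): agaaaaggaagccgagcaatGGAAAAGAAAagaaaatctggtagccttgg
Slc37a1 (chr17:31296167-31296216, plus strand): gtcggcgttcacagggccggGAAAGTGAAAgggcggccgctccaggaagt
Slc25a22 (chr7:141435425-141435474, minus strand): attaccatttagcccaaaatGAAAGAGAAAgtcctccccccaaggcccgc
In *Slc37a2* the match is read on the opposite strand and begins at base 35 of the transcript. Those of *Slc37a1* and *Slc25a22* end 27 and 69 bases before a start, which for *Slc25a22* is listed start 2. A match describes the letters only. Binding of IRF4 was not measured.

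The E-box CACGTG, known as a site for MYC and related factors and identical on both strands, stood in 9 of 22 lower members with a window (40.9%), 4 of 26 higher members (15.4%) and 10 of 84 members not called (11.9%). Among protein-coding genes with at least 10 counts, it stood in 16.9% of those lower, 11% of those higher and 11.1% of those not called. Lower members had more annotated starts, 1.77 windows per gene against 1.42 for the higher ones and 1.20 for those not called. With the first listed window of each gene only, the shares were 6 of 22 lower (27.3%), 3 of 26 higher (11.5%) and 9 of 84 not called (10.7%). The difference was not tested, since the members were chosen with results known. The lower genes with the E-box were *Slc12a7*, *Slc12a9*, *Slc16a1*, *Slc20a1*, *Slc25a1*, *Slc25a15*, *Slc25a33*, *Slc29a1* and *Slc39a11*. Of these, *Slc12a9* passed the test only near the cutoff (-0.37, SE 0.117, adjusted p = 0.0595). The calls of *Slc12a7*, *Slc12a9* and *Slc16a1* depended on single libraries. The stretches around the E-box, in capitals, are given for 4 of them and for *Slc37a3*, which rose.
Slc20a1 (chr2:129198578-129198772, plus strand): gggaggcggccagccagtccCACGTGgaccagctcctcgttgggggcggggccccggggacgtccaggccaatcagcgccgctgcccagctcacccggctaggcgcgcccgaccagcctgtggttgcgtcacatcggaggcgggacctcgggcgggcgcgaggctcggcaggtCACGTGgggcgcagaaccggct
Slc16a1 (chr3:104638444-104638489, plus strand): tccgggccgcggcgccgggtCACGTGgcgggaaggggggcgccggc
Slc29a1 (chr17:45595296-45595341, minus strand): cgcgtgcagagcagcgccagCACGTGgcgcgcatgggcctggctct
Slc25a33 (chr4:149774268-149774295, minus strand): cgtcacggcccggcctccgcCACGTGac
Slc37a3 (chr6:39377708-39377740, minus strand): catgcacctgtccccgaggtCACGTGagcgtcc
The E-boxes of *Slc20a1* end 169 and 16 bases before the start. That of *Slc25a33* ends 2 bases before its start and that of *Slc37a3* ends 7 bases before its start. In *Slc29a1* the E-box ends 69 bases before listed start 6 and is not in the first listed window. The amino acid response element core TGATGNAA, bound by factors of the amino acid starvation response, stood in 5 members (3.79%). It stood in 4.51% of all genes and in 2.78% of the protein-coding genes with at least 10 counts. *Slc1a4* was the only called member among the 5.

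**Figure D3:**
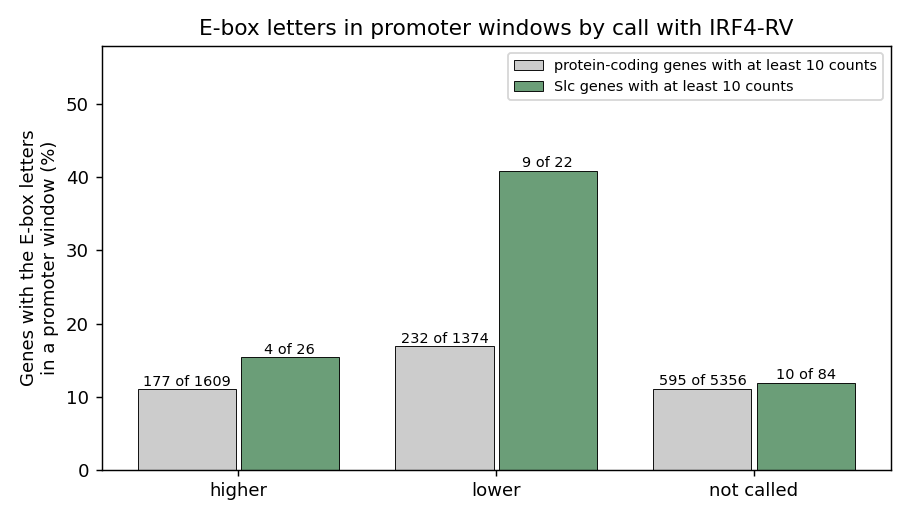
Share of genes with a promoter window that holds the E-box letters (vertical axis, %), split by call with IRF4-RV (horizontal axis), for protein-coding genes with at least 10 counts in each library (grey) and the expressed Slc genes (green), with counts above the bars. The share was 40.9% (9 of 22) in the lower Slc genes and 11.9% (10 of 84) in those not called. Lower genes had more windows each, and with the first listed window only the shares were 27.3% and 10.7%. The difference was not tested.

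The amino acid class follows family numbers and so includes *Slc7a6os*, whose product is not a carrier, and *Slc43a3*, a purine nucleobase carrier. Of its 21 members, 6 fell (28.6%), 3 rose (14.3%) and 12 were not called, with a median log2 fold change of -0.20. The 42.9% called compares with 35.5% of the protein-coding genes that met the count rule, 16.3% lower and 19.2% higher. With so few genes the class is not shown to differ from them. The other classes had between 22.2% (vitamins and heme) and 63.6% (organic ions) called, and these shares were not tested. The summed level of the amino acid class was 941.8 ± 2.94 TPM in EV-RV and 697.2 ± 29.7 TPM in IRF4-RV (SD, n = 2). Much of the sum and of its drop lay in the 2 most abundant members. *Slc1a5* had 234.6 TPM in EV-RV and 144.9 TPM in IRF4-RV, and *Slc7a5* had 231.1 and 163.7 TPM. The sum thus does not describe the class at large. *Slc1a5* (chromosome 7, 16781340 to 16798274), the ASCT2 glutamine carrier of the cell surface, had 13676 and 14699 counts in EV-RV and 10098 and 10508 in IRF4-RV. Both IRF4-RV libraries lay below both EV-RV libraries although they were sequenced more deeply. The log2 fold change was -0.58 (SE 0.0841, adjusted p = 0.00236).

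*Slc7a1* (chromosome 5, 148327410 to 148399904) encodes CAT-1, which takes up arginine and lysine and is also the entry receptor of ecotropic murine retroviruses. It fell from 6966 and 6997 counts to 5101 and 5142, a log2 fold change of -0.56 (SE 0.0768, adjusted p = 0.00177). *Slc1a4* (ASCT1), a relative of *Slc1a5* for alanine, serine and cysteine, fell by 0.56 on the log2 scale (817 and 817 against 564 and 640 counts, adjusted p = 0.00527). Also lower were *Slc6a6*, the taurine carrier (-0.49), and *Slc7a6*, a light chain that exchanges arginine for neutral amino acids (-0.41).

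*Slc7a5* (chromosome 8, 121881150 to 121907694), the LAT1 light chain that exchanges leucine and other large neutral amino acids, had 12659 and 12173 counts in EV-RV and 9989 and 10712 in IRF4-RV, with a log2 fold change of -0.38 (SE 0.0684, adjusted p = 0.00644). Its heavy chain *Slc3a2* (6658 and 7081 against 6277 and 6686 counts) had a log2 fold change of -0.20 (SE 0.0816) and did not pass the test, with an adjusted p of 0.125 (0.0402 without replicate 1 of EV-RV). Whether the chains differed in their change was not tested. The glutamine and alanine carrier *Slc38a2* likewise had -0.20 (adjusted p = 0.118), and the cystine carrier *Slc7a11* -0.24 at 211 and 177 against 179 and 176 counts (adjusted p = 0.323).

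The 3 rises in the amino acid class were of another kind. *Slc38a9* (chromosome 13, 112660751 to 112738749), an arginine-sensing carrier of the lysosome that signals to mTORC1, had 259 and 272 counts in EV-RV and 453 and 416 in IRF4-RV, a log2 fold change of 0.60 (SE 0.133, adjusted p = 0.0157). *Slc36a1*, a proton-coupled amino acid carrier found on lysosomes, rose by 0.48 and *Slc43a3*, a purine nucleobase carrier in the family of large neutral amino acid carriers, by 0.39. Both of these calls were lost without replicate 1 of IRF4-RV, and that of *Slc36a1* also without replicate 2 of EV-RV.

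**Figure D4:**
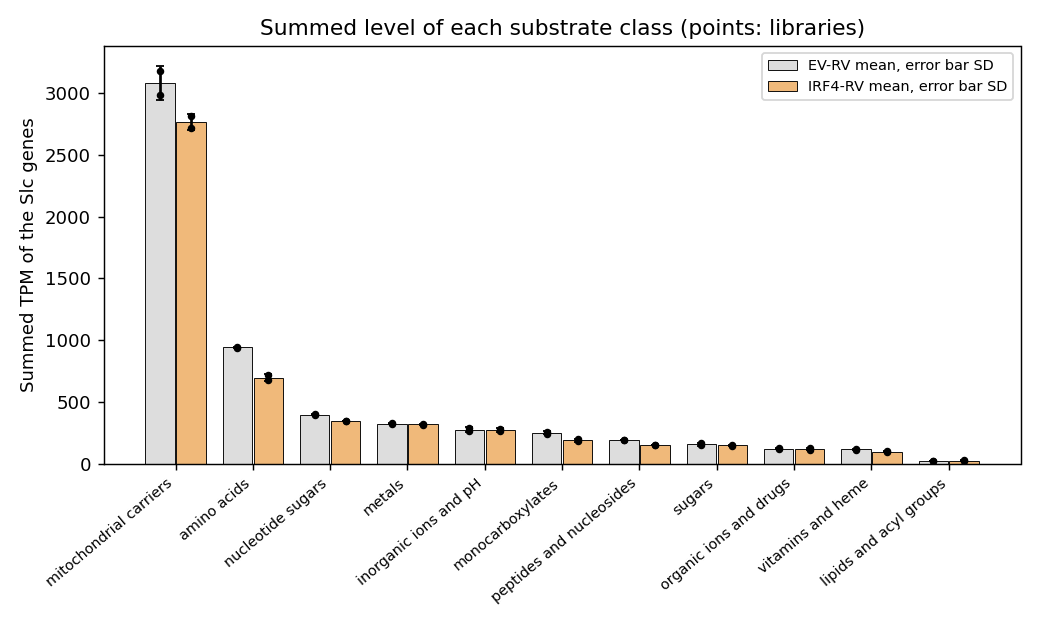
Summed TPM of the expressed Slc genes in each substrate class (vertical axis), with bars for the mean of EV-RV (grey) and IRF4-RV (orange), error bars for the SD of 2 libraries and points for the libraries. The amino acid class, whose most abundant members were *Slc1a5* and *Slc7a5*, went from 941.8 to 697.2 TPM. The metal class stood at 324.3 and 317.6 TPM. The sums were not tested.

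Sugar carriers did not move as a group, with 3 rises, 2 falls and a median of 0.00 over 13 members. Their 38.5% called was near the 35.5% of the protein-coding genes that met the count rule. The sugar phosphate family SLC37 held the largest rise of all members. *Slc37a2* (chromosome 9, 37227585 to 37255738), a sugar phosphate and phosphate exchanger of the endoplasmic reticulum, had 72 and 51 counts in EV-RV and 402 and 388 in IRF4-RV. Its level was 0.640 ± 0.161 TPM in EV-RV and 3.50 ± 0.345 TPM in IRF4-RV, and the log2 fold change was 2.57 (SE 0.180, adjusted p = 5.95e-05). It stayed low beside most members even after the rise.

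The related *Slc37a3* rose from 815 and 761 to 1595 and 1635 counts, a log2 fold change of 0.92 (SE 0.0873, adjusted p = 0.000296). *Slc37a1*, whose window holds the interferon-response type letters shown above, rose from 207 and 149 to 310 and 350 counts (0.78, SE 0.161, adjusted p = 0.0114). By contrast, *Slc37a4*, the glucose 6-phosphate carrier of the endoplasmic reticulum, had 686 and 593 counts against 678 and 705, with a log2 fold change of 0.00 (SE 0.0997).

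The glucose carriers *Slc2a1* and *Slc2a3* did not pass the test as run. *Slc2a1* (GLUT1) had 2097 and 1712 counts in EV-RV and 1792 and 1787 in IRF4-RV, with a log2 fold change of -0.20 (SE 0.0990, adjusted p = 0.198), and *Slc2a3* (GLUT3) had -0.24 (SE 0.0951, adjusted p = 0.111). *Slc2a1* passed without replicate 2 of EV-RV (adjusted p = 0.0892), and *Slc2a3* passed without replicate 1 of EV-RV (0.077) and with library size only (0.035). *Slc5a6*, which belongs to the sodium-coupled sugar carrier family but takes up biotin and pantothenate, fell from 359 and 424 to 217 and 285 counts (-0.76, SE 0.160, adjusted p = 0.0121). *Slc45a4* fell by 0.41 on the log2 scale.

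**Figure D5:**
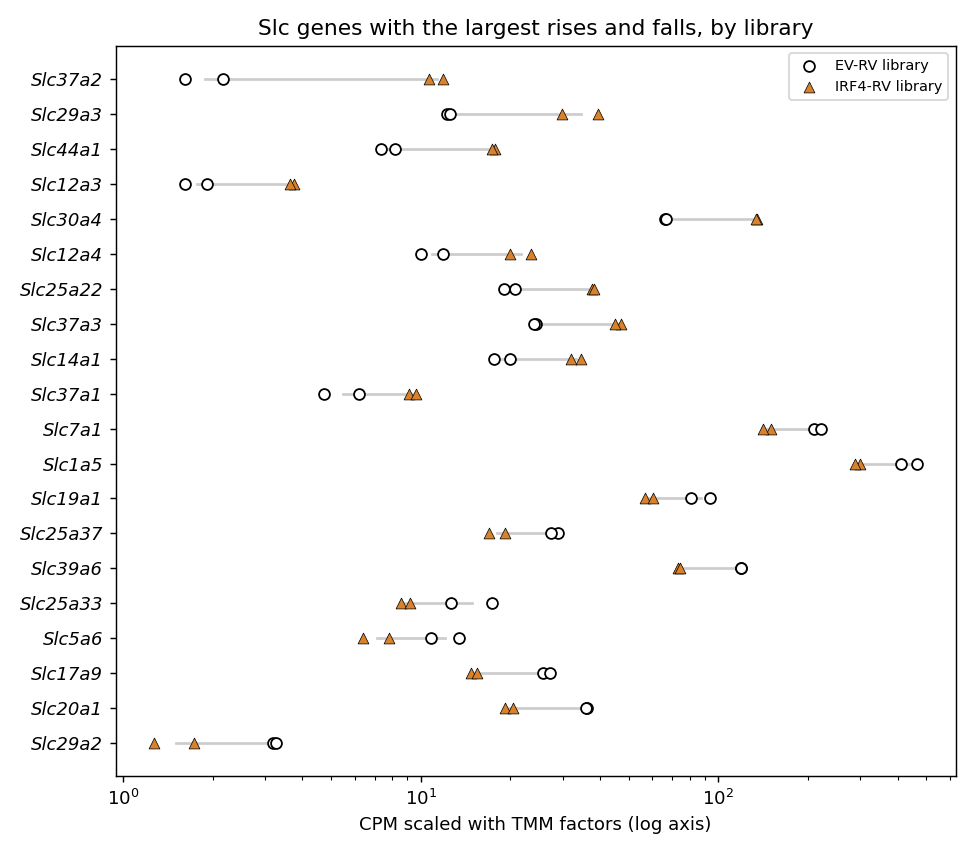
CPM after TMM scaling (horizontal log axis) of the 10 Slc genes with the largest rises and the 10 with the largest falls among those called with a mean of at least 50 counts, 1 row per gene, with an open circle for each EV-RV library, a triangle for each IRF4-RV library and a line between the group means. In each row the groups do not overlap, which the choice of these genes required.

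Nucleoside carriers moved in opposite directions. *Slc29a3* (chromosome 10, 60712072 to 60752794), the ENT3 carrier of lysosomes, had 411 and 394 counts in EV-RV and 1332 and 1085 in IRF4-RV, a log2 fold change of 1.48 (SE 0.142, adjusted p = 0.000323). The surface carriers *Slc29a1* (ENT1), which also takes up nucleoside drugs, and *Slc29a2* (ENT2) both fell. *Slc29a1* (chromosome 17, 45585200 to 45599606) had 7870 and 8351 against 5723 and 6509 counts (-0.53, SE 0.0836, adjusted p = 0.0036). *Slc29a2* was low, at 106 and 103 against 43 and 63 counts (-1.10, SE 0.252, adjusted p = 0.0175). At the fourth member of the family, *Slc29a4*, 24 and 28 counts stood against 29 and 17, and it was not called (-0.28, SE 0.444). Among the peptide carriers, *Slc15a4*, an endolysosomal histidine and peptide carrier known from Toll-like receptor signaling in B cells, rose from 942 and 940 to 1453 and 1616 counts (0.59, SE 0.0875, adjusted p = 0.00264). Its relative *Slc15a3*, of whose exon bases 28.1% are shared with another gene, had 0.15 (adjusted p = 0.261). Over the 7 members of the class there were 2 rises and 2 falls. The 57.1% called stands against 35.5% of the protein-coding genes that met the count rule, and with so few genes no difference is shown. The summed level of the class was 189.9 ± 1.18 TPM in EV-RV and 150.2 ± 1.35 TPM in IRF4-RV. Its drop lay in the nucleoside family SLC29, with 147.4 TPM in EV-RV and 103.1 TPM in IRF4-RV. The peptide family SLC15 had 30.9 and 35.9 TPM, and the class median log2 fold change was 0.07.

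Mitochondrial carriers, the family SLC25, contributed 35 members, of which 5 rose, 6 fell and 24 were not called, with a median of 0.05. The 31.4% called (14.3% higher, 17.1% lower) compares with 35.5% of the protein-coding genes that met the count rule (19.2% and 16.3%). By these shares the family is not set apart. *Slc25a22* (chromosome 7, 141429744 to 141437892), a glutamate carrier, rose from 633 and 657 to 1269 and 1393 counts, a log2 fold change of 0.93 (SE 0.0946, adjusted p = 0.000423). *Slc25a17*, a carrier of peroxisomes for coenzyme A and related cofactors, rose by 0.68 (2811 and 2941 against 4804 and 5202 counts, adjusted p = 0.000929). Among the other rises were the ATP-magnesium/phosphate carrier *Slc25a25* (0.58) and *Slc25a45* (0.41), the latter of which kept its call only without replicate 2 of IRF4-RV.

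Falls in this family included carriers of pyrimidine nucleotides, iron, citrate, ornithine and folate. *Slc25a33* (chromosome 4, 149744036 to 149774277), the pyrimidine nucleotide carrier, had 419 and 545 counts in EV-RV and 290 and 335 in IRF4-RV (-0.75, SE 0.164, adjusted p = 0.0145). *Slc25a37*, or mitoferrin-1, which brings iron into mitochondria for heme and iron-sulfur clusters, fell from 963 and 865 to 651 and 616 counts (-0.64, SE 0.104, adjusted p = 0.00394), and mitoferrin-2, *Slc25a28*, fell by 0.29 on the log2 scale, a call lost without any 1 of the libraries. The citrate carrier *Slc25a1*, one of the most abundant members at 227.1 ± 5.39 TPM in EV-RV, was at 144.8 ± 1.91 TPM in IRF4-RV (-0.53, SE 0.0710, adjusted p = 0.00159). *Slc25a15*, the ornithine carrier, and *Slc25a32*, the folate carrier, had -0.54 and -0.49. The summed level of the family was 3082.2 ± 138.3 TPM in EV-RV and 2763.3 ± 66.3 TPM in IRF4-RV, with most of it in *Slc25a5*.

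Carriers of metals held 3 rises, 3 falls and 15 members not called. Their 28.6% called stands against 35.5% of the protein-coding genes that met the count rule, and the difference was not tested. *Slc30a4* (chromosome 2, 122681233 to 122702663), or ZnT4, which moves zinc from the cytosol into vesicles, had 2201 and 2099 counts in EV-RV and 4583 and 4855 in IRF4-RV, a log2 fold change of 1.02 (SE 0.0735, adjusted p = 6.97e-05). It was the most abundant of the rises beyond a log2 fold change of 1, and the 5 other members of SLC30 were not called. Of the SLC39 family, which raises cytosolic zinc, 2 of 10 members rose and 3 fell. Protein-coding genes that met the count rule were higher in 19.2% and lower in 16.3%, and with so few members no difference is shown.

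*Slc39a6* (ZIP6) fell from 3963 and 3759 to 2484 and 2709 counts (-0.69, SE 0.0731, adjusted p = 0.000514). *Slc39a10* (ZIP10), known for a role in early B-cell survival, had 1701 and 1623 against 1411 and 1461 counts (-0.33, SE 0.0823, adjusted p = 0.0262). That call was lost without replicate 2 of IRF4-RV (adjusted p = 0.181). *Slc39a1* (ZIP1) rose by 0.47 and *Slc39a9* (ZIP9) by 0.32, the latter call lost without replicate 1 of EV-RV or replicate 2 of IRF4-RV. The iron importer *Slc11a2* was not called (0.16, adjusted p = 0.313), and the iron exporter *Slc40a1* was no member, with 2 and 1 counts in EV-RV and 0 in both IRF4-RV libraries.

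Among the 26 members of the inorganic ion and proton families, 7 rose and 4 fell, with a median of -0.06. The 42.3% called stands against 35.5% of the protein-coding genes that met the count rule, and the difference was not tested. *Slc20a1* (chromosome 2, 129198764 to 129211616), the PiT-1 phosphate carrier whose promoter stretch with 2 E-boxes is printed above, had 1205 and 1132 counts in EV-RV and 651 and 742 in IRF4-RV, a log2 fold change of -0.86 (SE 0.0908, adjusted p = 0.000489). Of its exon bases 13.1% are shared with another gene. The other phosphate carrier of its family, *Slc20a2*, was not called (-0.20).

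In the cation-chloride family SLC12, 2 of 6 members rose and 2 fell. These are too few to set against the 35.5% of the protein-coding genes that met the count rule. *Slc12a4*, the potassium-chloride cotransporter KCC1, rose from 334 and 374 to 797 and 728 counts (0.99, SE 0.132, adjusted p = 0.00151), whereas the related *Slc12a7* (KCC4) fell by 0.46 on the log2 scale, a call lost without replicate 1 of EV-RV or replicate 2 of IRF4-RV. *Slc12a3*, the thiazide-sensitive cotransporter best known from kidney, was low at 64 and 51 against 127 and 132 counts (1.06, SE 0.218, adjusted p = 0.0111). *Slc9a7*, a sodium/proton exchanger of the Golgi network, rose by 0.56 (537 and 570 against 933 and 832 counts, adjusted p = 0.0148).

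Sodium/calcium exchange showed the largest fall of the class. *Slc8a2* (chromosome 7, 16129826 to 16161063) had 54 and 42 counts in EV-RV and 22 and 14 in IRF4-RV, a log2 fold change of -1.51 (SE 0.401, adjusted p = 0.0311). Counts of this size leave a wide error, and without replicate 1 of EV-RV the adjusted p was 0.179. *Slc8b1*, the sodium/calcium exchanger of mitochondria, rose by 0.57, with 123 and 112 against 180 and 198 counts, and kept the call only when replicate 2 of IRF4-RV was the library left out.

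Of the vitamin and heme carriers, 2 fell and 7 were not called. Their 22.2% called stands against 35.5% of the protein-coding genes that met the count rule, and with so few genes no difference is shown. *Slc19a1* (chromosome 10, 77032241 to 77061002), the reduced folate carrier, which also takes up the leukemia drug methotrexate, had 2693 and 2967 counts in EV-RV and 1912 and 2190 in IRF4-RV, a log2 fold change of -0.58 (SE 0.0971, adjusted p = 0.0044). Its relative *Slc19a2*, a thiamine carrier, fell by 0.49 on the log2 scale, a call lost without replicate 2 of EV-RV. The proton-coupled folate carrier *Slc46a1* was near the threshold at 29 and 29 against 28 and 22 counts and was not called (-0.32, SE 0.385). The 9 members of the class had a median of -0.20 and a summed level of 115.9 ± 5.65 TPM in EV-RV and 98.4 ± 0.392 TPM in IRF4-RV.

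Of 4 monocarboxylate carriers, only *Slc16a1* passed the test. *Slc16a1* (chromosome 3, 104638668 to 104658462), the MCT1 carrier of lactate and pyruvate, had 14500 and 15817 counts in EV-RV and 13170 and 13390 in IRF4-RV, a log2 fold change of -0.31 (SE 0.0887, adjusted p = 0.0426). The call was lost without replicate 2 of EV-RV (adjusted p = 0.152) and without replicate 2 of IRF4-RV (adjusted p = 0.227). *Slc16a3* (MCT4) was low, at 40 and 36 against 37 and 32 counts, and was not called (-0.25, SE 0.334).

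Carriers of organic ions held 4 rises and 3 falls among 11 members. The 63.6% called stands against 35.5% of the protein-coding genes that met the count rule, and with so few genes no difference is shown. *Slc44a1* (chromosome 4, 53440413 to 53622478), a choline carrier that supplies phosphatidylcholine synthesis, rose from 274 and 231 to 600 and 632 counts (1.17, SE 0.115, adjusted p = 0.000349), and the related *Slc44a2*, far more abundant at 46.2 ± 3.74 TPM in EV-RV, rose by 0.30, a call lost without replicate 1 of IRF4-RV. The urea carrier *Slc14a1* rose from 668 and 556 to 1168 and 1168 counts (0.82, SE 0.104, adjusted p = 0.00124). *Slc17a9* (chromosome 2, 180725263 to 180742280), which loads ATP into secretory vesicles and lysosomes, fell from 857 and 854 to 502 and 559 counts (-0.81, SE 0.0960, adjusted p = 0.000944). *Slc17a5*, the lysosomal sialic acid exporter of the same family, rose by 0.48, and the call was lost without replicate 2 of EV-RV or replicate 1 of IRF4-RV.

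The family SLC35 holds nucleotide sugar carriers, which feed glycosylation in the Golgi apparatus and endoplasmic reticulum, and their relatives. Its number does not give the substrate of each member. Of its 19 members 4 rose and 3 fell, with a median of 0.07. The 36.8% called was near the 35.5% of the protein-coding genes that met the count rule. The largest rise was that of *Slc35f6* (0.76, SE 0.145, adjusted p = 0.00813), with 267 and 214 counts in EV-RV and 460 and 416 in IRF4-RV. The largest fall was that of *Slc35g1* (-0.45, SE 0.0911, adjusted p = 0.0108), with 1541 and 1487 against 1220 and 1185 counts. *Slc35c1*, the GDP-fucose carrier, fell by 0.36 on the log2 scale, a call lost without replicate 2 of either group. Of the 4 lipid and acyl group members, only *Slc27a1*, a fatty acid carrier of the cell surface, was called (0.39, adjusted p = 0.0878), and it kept the call only when replicate 2 of IRF4-RV was omitted.

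Of a list of 20 carriers known for roles in lymphocytes or leukemia, 19 were members, and 2 of these rose, *Slc15a4* among them, and 8 fell (*Slc1a5*, *Slc7a5*, *Slc16a1*, *Slc19a1*, *Slc20a1*, *Slc25a37*, *Slc29a1* and *Slc39a10*). Among all members 18.8% were higher and 18.8% lower, and among protein-coding genes that met the count rule 19.2% and 16.3%. The list was written with earlier results of these data known, so its counts are a description and were not tested against these shares.

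A further list held 31 carriers, partner proteins and receptors of transport whose symbols do not start with Slc and a number. Of the 27 tested, 8 were higher, 5 were lower and the median log2 fold change was 0.15. Among all genes tested 16% were higher and 13.7% lower, and with so few genes the list is not shown to differ from them. *Mpc2*, a subunit of the mitochondrial pyruvate carrier, rose from 1127 and 1261 to 2744 and 3215 counts (1.20, SE 0.105, adjusted p = 0.000201), while its partner *Mpc1* was not called (0.22, adjusted p = 0.223). *Npc1*, which exports cholesterol from lysosomes, rose by 0.71, and *Ostm1*, the partner of a lysosomal chloride carrier, by 0.69. The transferrin receptor *Tfrc*, through which iron enters the cell, fell from 8348 and 7596 to 6347 and 6495 counts (-0.43, adjusted p = 0.0049). *Bsg*, the partner protein of MCT1, was not called (0.17, adjusted p = 0.216).

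The libraries of a group were close for most members. The ratio of the higher to the lower CPM had a median of 1.09 in EV-RV and 1.06 in IRF4-RV. A ratio above 1.5 was found for 4 members in EV-RV and 6 in IRF4-RV, and of all these only *Slc8a2* was called. The widest gap in IRF4-RV was that of *Slc16a13*, with 26 and 57 counts (ratio 2.04), in the same direction as the stromal markers, while the other 5 were higher in replicate 1. The part of stromal RNA in these values was not tested.

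Of the 35 Slc genes that reached 10 counts in some libraries only, 16 were tested and 6 were higher. Genes absent from 1 group could pass the filter only if they were high in the other, so these counts are not set against those of the members. *Slc2a6*, a lysosomal relative of the glucose carriers, had 4 counts in each EV-RV library and 110 and 147 in IRF4-RV.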

How the data were processed

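Bulk RNA-seq libraries of T8 cells (2 EV-RV, 2 IRF4-RV) were grouped by the sample labels. Per the submitters' processing notes and the methods of the study, the authors aligned reads to GRCm38 with STAR 2.4.0j and counted them with featureCounts; the deposited values are raw counts without normalization. The study names Ensembl annotation for counting, but strand and multi-mapping settings are not given in the sources used here. Of 55359 identifiers, 52083 matched GENCODE M21, and the other 3276 held 0.203% to 0.486% of the counts. The chi-square per degree of freedom between replicates was 15.5 (EV-RV) and 14.3 (IRF4-RV), so they were treated as separate samples.

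Genes passing filterByExpr, which included all 170 members, were tested in R 4.3.3 with edgeR 4.0.16 (TMM factors, quasi-likelihood F test without a replicate block, Benjamini-Hochberg over all genes tested, FDR 0.1). All adjusted p in the text are from this test unless another fit is named. The script was tested on simulated data. TPM were computed from the counts and the merged exon length of GENCODE M21, whose coordinates are on GRCm38. Substrate classes follow family numbers. Named are the 10 largest rises and 10 largest falls with a mean of at least 50 counts and no overlap between groups, the 5 highest levels, the largest rise and fall in each class with at least 5 members, genes near the threshold and the listed carriers. Other names in the text were chosen after their values were seen. Members and lists were chosen with earlier results of these data known. Counts cover counting error only, and 3 counts equal between 0.0824 and 0.0952 CPM. The alternatives were DESeq2 1.42.0, its size factors, library size only, other filters, an FDR of 0.05, a replicate block and leaving out each library. Some genes are not reported here.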

Additional observations from a re-analysis of the deposited data

How the results depend on the processing

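The 32 rises and 32 falls became 25 and 28 with DESeq2, where 52 of 53 calls were shared with edgeR, 32 and 33 with DESeq2's size factors, 31 and 30 with all genes of at least 1 count, 27 and 27 at an FDR of 0.05, and 32 and 30 with members of at least 50 counts. Leaving out each library in turn gave between 22 and 33 rises and between 23 and 31 falls. In these fits the lone library of a group is assumed to vary like the others. The median log2 fold change of the members, 0.008, was -0.081 with library size only and between -0.021 and 0.062 without each library, and no called value reversed. Same-numbered libraries deviated together with a Pearson's r of 0.26 across genes, and stromal markers were higher in replicate 2 of both groups. With 2 pairs and no stated link, the replicate numbers do not establish a pairing. A replicate block gave 43 rises and 42 falls, including all 64 calls, and also called *Slc2a1* (adjusted p = 0.0199), *Slc2a3* (0.0129), *Slc38a2* (0.00177) and *Slc3a2* (0.00259). The last 3 also passed with library size only (adjusted p = 0.035, 0.0305 and 0.0229), *Slc2a3* and *Slc3a2* without replicate 1 of EV-RV (0.077 and 0.0402), *Slc2a1* without replicate 2 of EV-RV (0.0892) and *Slc38a2* with DESeq2 (0.0986). Depth limits the 7 members with fewer than 20 counts in their lowest library, where standard errors reach 0.499.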

Other observations

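A list of 25 Slc genes whose products are known from lysosomes, endosomes or related vesicles was written after the values were seen. Of its 20 members, 9 were higher (among them *Slc9a7*, *Slc15a4*, *Slc17a5*, *Slc29a3*, *Slc30a4*, *Slc35f6*, *Slc36a1* and *Slc38a9*), 2 were lower (*Slc12a9* and *Slc17a9*) and 9 were not called, with a median log2 fold change of 0.37. Among the 150 members outside the list, 23 were higher and 30 lower. Among protein-coding genes that met the count rule, 19.2% were higher and 16.3% lower. No test was made, because the list was drawn up from these values. For the same reason its rises do not show that such carriers differ from other genes.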
